A study of Homo sapiens with 9 samples.

Results

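Oxidative phosphorylation is carried out in the inner mitochondrial membrane by 5 protein complexes, most of whose subunits are encoded in the nucleus. The nuclear genes were taken by symbol, as all genes whose annotated symbol starts with NDUFA, NDUFB, NDUFC, NDUFS, NDUFV, SDHA to SDHD, UQCR, COX4 to COX8 or ATP5. This gave 94 genes of the 19775 that had a probe set annotated to them alone. They were 33 genes of complex I, 3 of complex II, 6 of complex III, 17 of complex IV and 18 of complex V, with 12 assembly factors of complexes I and II and 5 pseudogenes or non-coding genes whose symbols share these letters. Each gene was read from its brightest probe set. After a filter on dim probe sets, 86 of the 94 genes were tested among 13056 genes in all, and 72 of the 86 encode subunits. The genes SDHB, NDUFS5, NDUFS8, NDUFC2, UQCRFS1 and UQCRH were not analysed here. NDUFA4, a subunit of complex IV, carries the symbol COXFA4 in the annotation and so falls outside the symbol rule.

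The RNA came from HepG2, a human hepatocellular carcinoma cell line. The groups are named knockdown1, knockdown2 and control, with 3 arrays each. Per the series' design text, small interfering RNAs were directed against HNF4alpha and HNF4gamma together, 2 related nuclear receptors, of which HNF4alpha regulates many hepatocyte genes. What sets knockdown1 apart from knockdown2 is not stated in the labels, nor are the treatment of the control cells, the length of the knockdown and the origin of the replicates. Since the replicates may not be separate cultures, the p-values may reflect technical spread alone.

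Complexes I and II pass electrons from NADH and succinate to ubiquinone, complex III passes them to cytochrome c, and complex IV passes them to oxygen. Complexes I, III and IV pump protons, and complex V, the ATP synthase, uses the proton gradient to make ATP. Complex II is encoded by nuclear genes alone, whereas the other complexes also hold subunits encoded by mitochondrial DNA. Hepatocytes are rich in mitochondria and draw on this chain for gluconeogenesis and urea synthesis.

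The values are linear array intensities. The array medians of the deposited values ranged from 12.3 to 15.7, and all arrays were brought to the same median, 14.1. The deposited arrays already shared a mean of 100.0 after trimming 2% of the probe sets at each end. Across the 13056 tested genes, log2 values correlated at 0.973 to 0.978 between arrays of 1 group and at 0.931 to 0.953 between arrays of different groups. Genes are not independent replicates. HNF4G, the targeted gene that could be read, had scaled signals of 14.4, 23.5 and 17.4 in the knockdown1 arrays, 41.9, 24.4 and 28.6 in the knockdown2 arrays and 45.2, 47.9 and 44.9 in the control arrays. All 6 knockdown arrays lay below the controls, and HNF4G differed from control by -1.28 (limma adjusted p = 5.38e-04, SE 0.28) on the log2 scale in knockdown1 and -0.56 (limma adjusted p = 0.142, SE 0.28) in knockdown2. HNF4A was not analysed here. Of the hepatocyte markers, 8 of 8 passed the filter, with a summed scaled signal of 26458 to 31947 in knockdown1, 29335 to 31524 in knockdown2 and 31933 to 38829 in control. Of the markers of other cells, 0 of 2 passed for blood, 1 of 3 for endothelium, 4 of 4 for fibroblasts and 2 of 3 for muscle, with single signals of at most 88.9. The summed endothelial signal was 71.6 to 81.2 in knockdown1, 81.0 to 94.9 in knockdown2 and 51.4 to 58.6 in control, and its part in the results was not tested. In bulk RNA, fewer cells that express a gene and less of its RNA per cell cannot be told apart.

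As a group, the oxidative phosphorylation genes moved little. ATP5F1E, the epsilon subunit of the ATP synthase, fell more than 2-fold in knockdown1. On the probe sets used, it was the only one of the 86 tested genes to differ from control by more than 2-fold in either knockdown. Dimmer probe sets gave log2 differences of 1.67 for NDUFA7 and -1.24 for COX7B in knockdown1 (limma adjusted p = 0.0348 and 0.0251, over all probe sets). In knockdown2, 2 dimmer ones of NDUFAF7 gave 1.05 and 0.85 (limma adjusted p = 4.75e-04 and 0.0028, over all probe sets). In knockdown1 against control, 1 gene rose and 13 fell at an adjusted p under 0.05 by limma, adjusted over all 13056 genes. Of all tested genes, 14.3% rose and 19.0% fell in that comparison. In knockdown2 against control, 2 genes rose and 8 fell, where 13.7% of all tested genes rose and 13.9% fell. In knockdown1 against knockdown2, 4 genes were higher and 9 lower, where 10.5% of all tested genes were higher and 16.1% lower. Both knockdowns were compared with the same 3 control arrays. With this scaling, the share of the 86 genes that fell against control was below that of all tested genes in each knockdown. Under the other 3 scalings described below it was above.

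The differences were small and mostly below 0. The median log2 difference of the 86 genes was -0.16 in knockdown1 against control, with 70 of the 86 (81.4%) below 0, beside a median of -0.01 and 50.6% below 0 over all tested genes. In knockdown2 against control the median was -0.13, with 57 of the 86 below 0 (66.3%), beside 0.01 and 48.8% over all tested genes. Between knockdown1 and knockdown2 it was -0.05, beside -0.03 over all tested genes. Single arrays moved these medians. In knockdown1 the median was -0.27 without knockdown1 replicate 3 and -0.09 without control replicate 3, and in knockdown2 it was -0.20 without control replicate 2 and -0.04 without control replicate 3. Between the knockdowns it ran from -0.15 without knockdown1 replicate 3 to 0.0023 without knockdown1 replicate 2. Relative to the median of all tested genes in the same fit, it stayed at -0.13 to -0.21 in knockdown1 and at -0.11 to -0.15 in knockdown2 over the 9 fits without 1 array. For 60 of the 86 genes (69.8%) the 95% confidence interval of the difference between knockdown1 and control lay within 1.5-fold in either direction, which held for 28.0% of all tested genes. The same count was 60 (69.8%) in knockdown2 against control, beside 30.8% of all tested genes. These shares depend on the spread as well as on the size of the differences. The median SD within groups, on the log2 scale, was 0.16 for the 86 genes and 0.22 for all tested genes. The plots of all genes by array and of the differences by complex show these small shifts beside the few genes that stand apart.

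**Figure D1:**
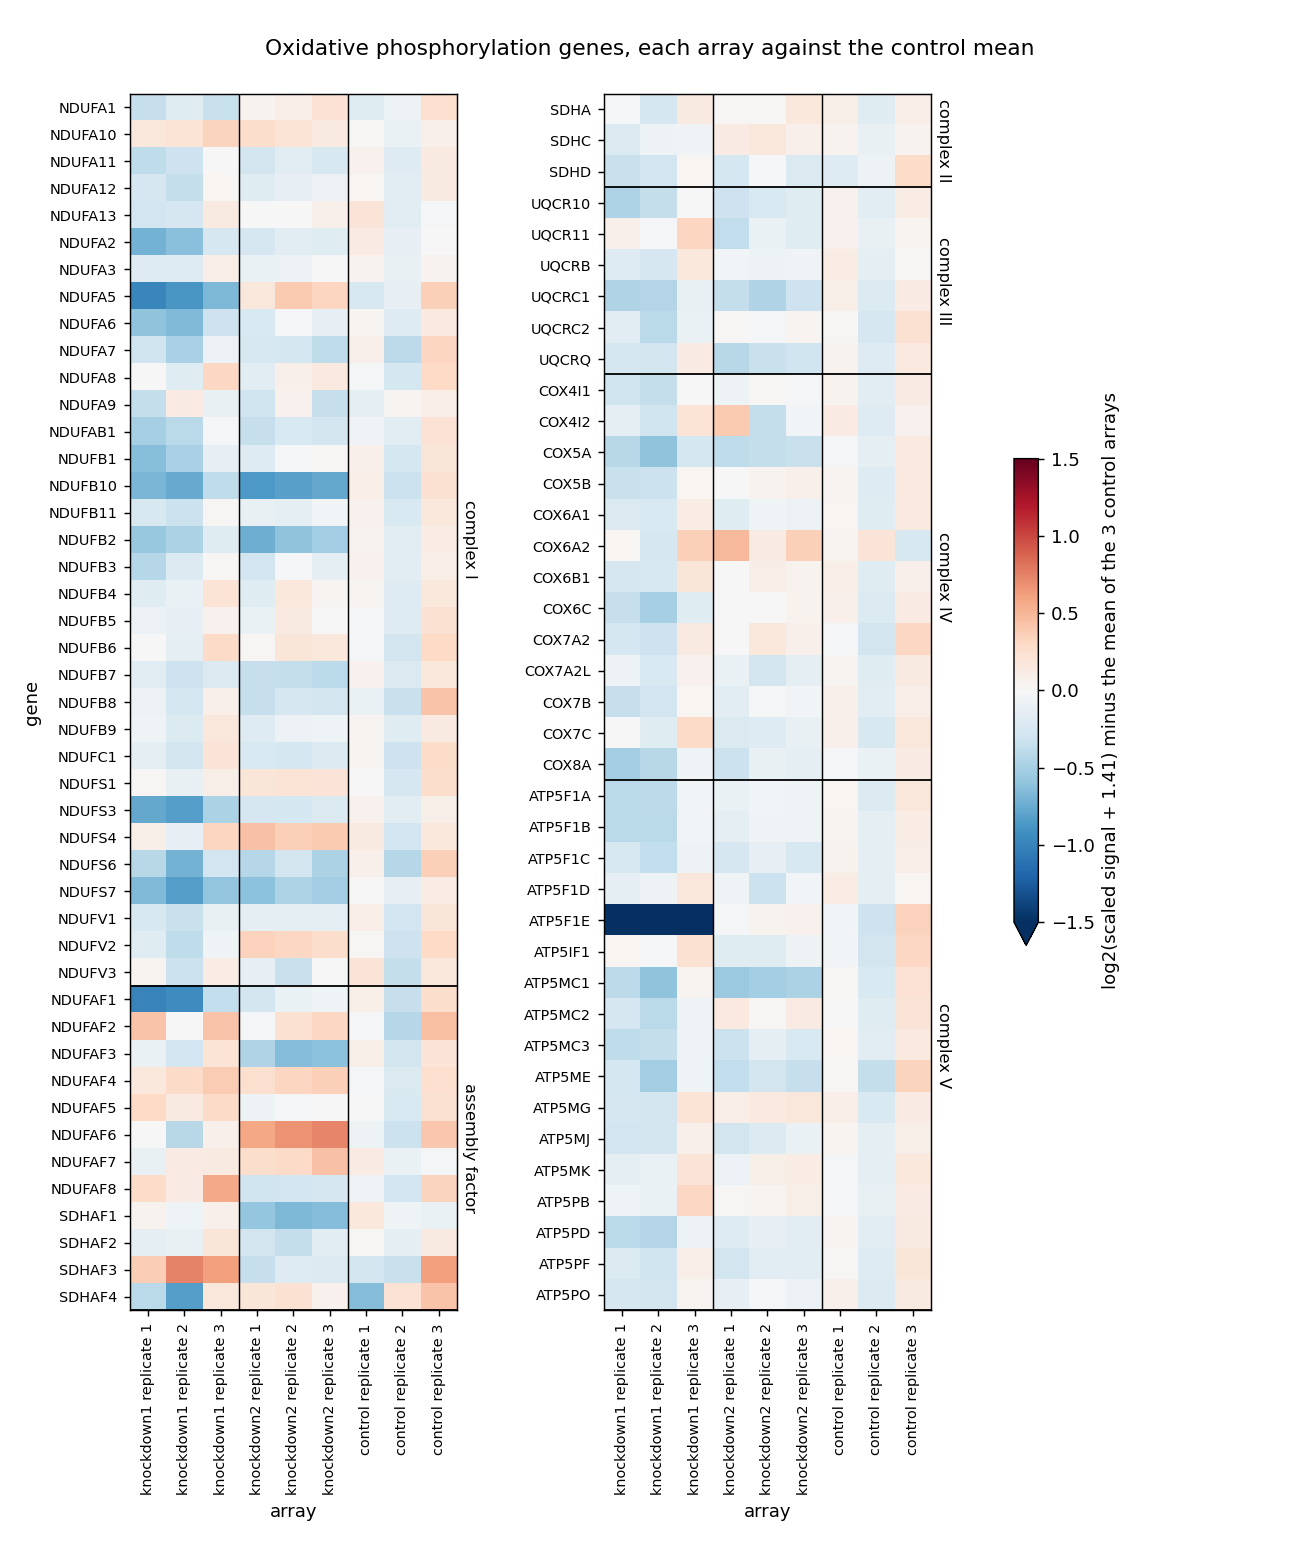
Each cell gives the log2(scaled signal + 1.41) of 1 gene on 1 array minus the mean of the 3 control arrays, for the 84 tested subunit and assembly factor genes, with knockdown1, knockdown2 and control arrays from left to right and colours ending at -1.5. ATP5F1E is dark on the 3 knockdown1 arrays alone, and whole columns shift together, with knockdown1 replicates 1 and 2 and control replicate 2 bluer than the other arrays of their groups.

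**Figure D2:**
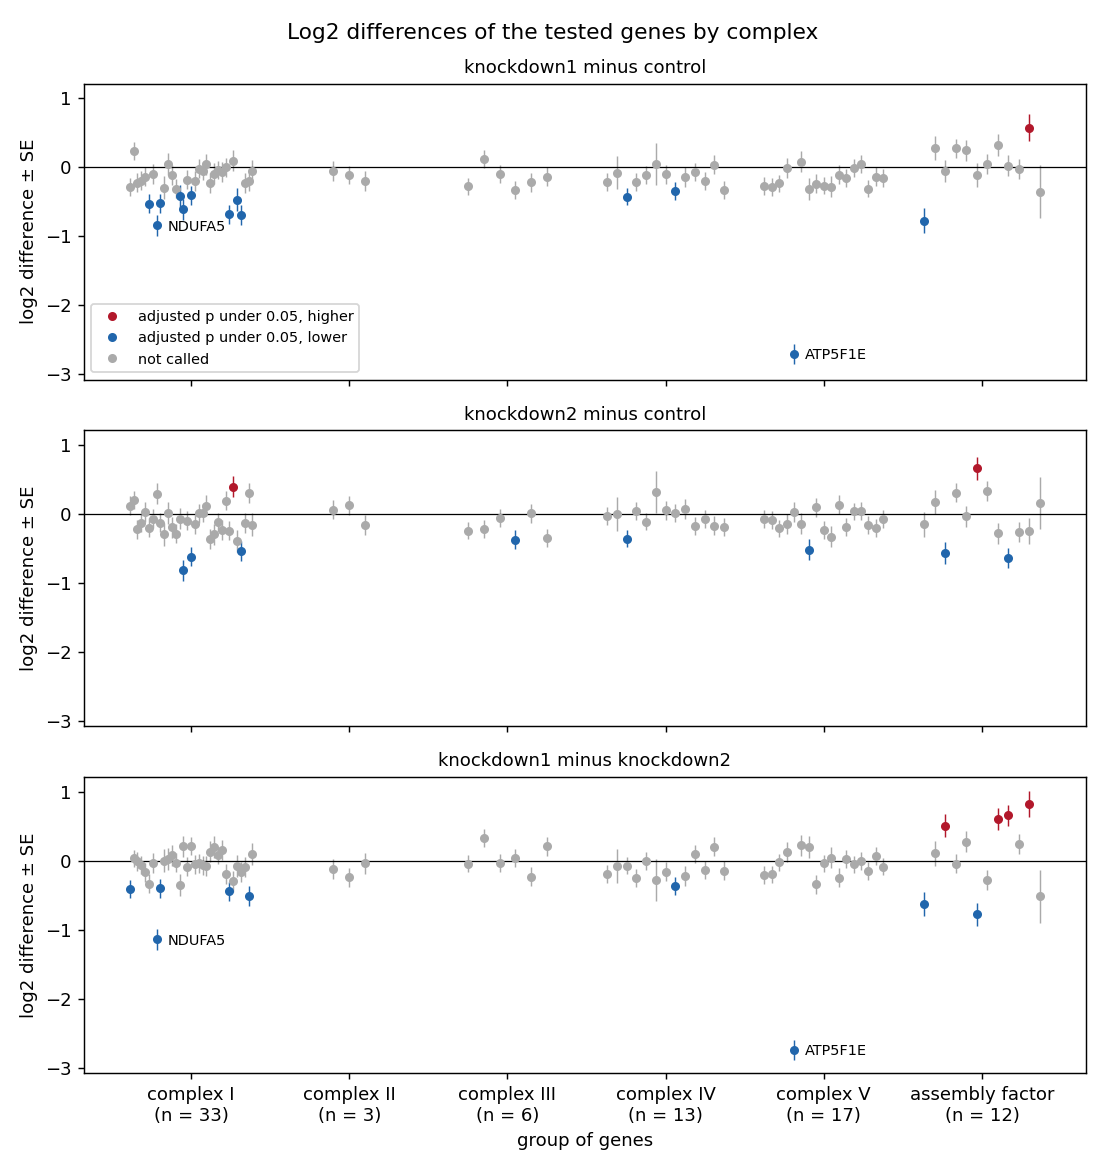
Points are log2 differences of single genes with their SE, by complex, for knockdown1 minus control (top), knockdown2 minus control (middle) and knockdown1 minus knockdown2 (bottom), coloured where the limma adjusted p was under 0.05. Most points lie near 0, and ATP5F1E lies at -2.70 and -2.74 in the top and bottom panels.

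After scaling to a common median, the genes also moved together from array to array. The median log2 value of the 86 genes was 10.21, 10.21 and 10.48 in the knockdown1 arrays, 10.37, 10.45 and 10.43 in the knockdown2 arrays, and 10.66, 10.39 and 10.72 in the control arrays. Knockdown1 replicates 1 and 2 and control replicate 2 were thus the low arrays of their groups. These 3 arrays also had the highest deposited medians, at 15.0, 15.7 and 15.6, beside 12.3 to 13.8 on the other 6, so scaling to a common median lowered them most. The median SD within groups of the 86 genes was 0.16 on the log2 scale after scaling and 0.096 in the values as deposited.

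The number of genes called depended on the scaling, while those of the 86 genes called after common scaling kept their direction under the other 3 scalings. With the values as deposited, 7 genes rose and 21 fell in knockdown1 against control, where 23.8% of all tested genes rose and 20.1% fell. In knockdown2 against control 5 rose and 30 fell, where 17.4% and 20.0% of all tested genes did. In knockdown1 against knockdown2, 19 were higher and 10 lower, where 21.5% of all tested genes were higher and 16.1% lower, so the split between higher and lower turned round there. The median of all tested genes in this last comparison moved to 0.08 with the values as deposited, and that of the 86 genes to 0.07, with the signs of both turned. In knockdown1 against control, as deposited and with quantile normalization, the median of the 86 was -0.07 and -0.05. Quantile normalization gave 11 higher and 21 lower in that comparison, where 23.8% of all tested genes were higher and 20.5% lower. It gave 5 and 38 in knockdown2 against control, beside 17.6% and 20.2% of all tested genes, and 30 and 9 between the knockdowns, beside 21.1% and 16.5%. Centring on the tested genes gave 6 higher and 19 lower in knockdown1 against control (24.1% and 19.7% of all tested genes). It gave 8 and 17 in knockdown2 against control (21.5% and 16.3%) and 13 and 15 between the knockdowns (17.3% and 19.2%). In each knockdown, the share of the 86 genes that fell against control was thus below that of all tested genes after common scaling. With the other 3 scalings it was above. Relative to the median of all tested genes, the median of the 86 lay at -0.15 in knockdown1 against control and at -0.14 in knockdown2 against control, both after common scaling and as deposited. Of the calls made after common scaling, 1 of 1 rise and 13 of 13 falls in knockdown1, 2 of 2 rises and 8 of 8 falls in knockdown2, and 4 of 4 higher and 8 of 9 lower genes between the knockdowns were made under all 4 scalings. The exception was NDUFA1. Most calls of all tested genes held as well. In knockdown1, 1854 of 1866 rises and 2394 of 2485 falls were made under all 4 scalings. In knockdown2 it was 1762 of 1795 rises and 1779 of 1813 falls. Between the knockdowns it was 1356 of 1368 higher and 1973 of 2105 lower genes.

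**Figure D3:**
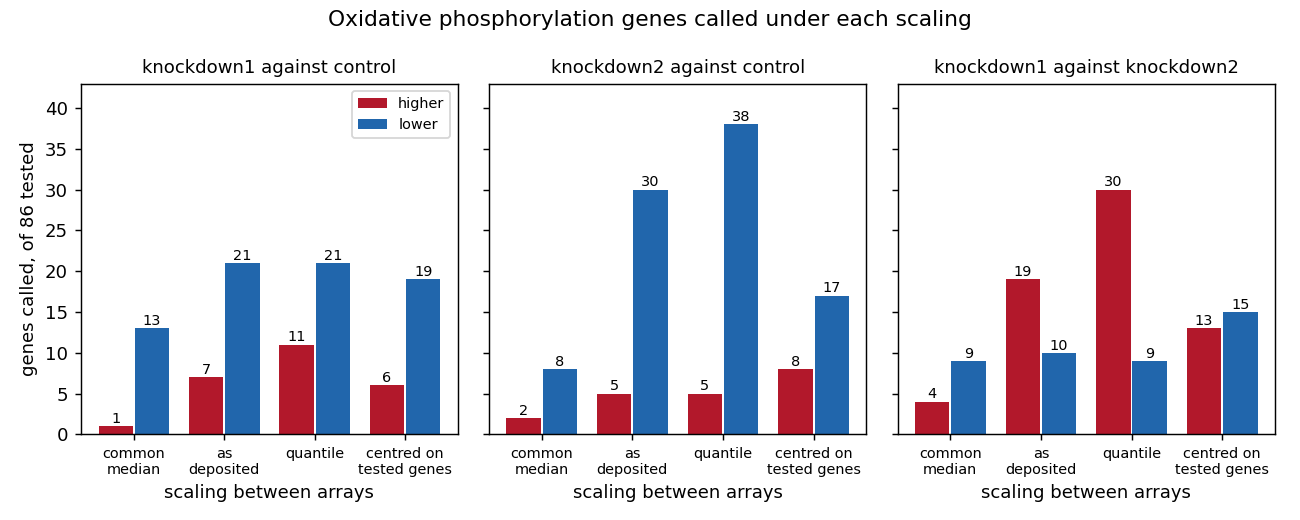
Bars count the oxidative phosphorylation genes of the 86 tested that were higher (red) or lower (blue) at a limma adjusted p under 0.05, for each comparison and each of 4 ways of scaling the arrays. Falls outnumber rises against control under all 4 scalings, while between the knockdowns the split goes from 4 higher and 9 lower to 30 higher and 9 lower.

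The counts also rested on single arrays. The shares of all tested genes in the fits without 1 array are not given here. These counts therefore do not tell whether the swings were particular to the 86 genes. Without knockdown1 replicate 2, 8 genes fell in knockdown1 against control, and without knockdown1 replicate 3 or control replicate 2 it was 28 or 27. Genes higher in knockdown1 than control numbered 5 without control replicate 3 and 0 without knockdown1 replicate 2 or 3 or control replicate 1 or 2. Without control replicate 2, 16 genes fell in knockdown2 against control, and without knockdown2 replicate 1 it was 5. Genes that rose in knockdown2 numbered 6 without control replicate 3, 2 without knockdown1 replicate 2 or 3, and 1 without any of the other 6 arrays. Genes lower in knockdown1 than knockdown2 numbered 16 without knockdown1 replicate 3, 4 without knockdown1 replicate 1, and 5 without knockdown1 replicate 2 or knockdown2 replicate 2 or 3. With the values as deposited, all calls made after common scaling for single genes of the 86 held in each of the 9 fits that left out 1 array, except those for NDUFS6 and NDUFA1.

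Promoters of these genes are known to hold sites of general activators such as NRF1, the ETS factor GABP and YY1. RefSeq promoters (GRCh38.p14, 250 bases before to 50 after the start) were matched by symbol for 77 of the 89 members that are neither pseudogenes nor non-coding. The letters GCGCATGCG (NRF1), on either strand, were found in 14.3% of the 77, in 2.10% of all 27305 promoters of the table and in 2.76% of the 15843 of protein-coding genes. The same letters with the middle base free, GCGCNTGCG, a motif that includes the first one, stood in 32.5% of the 77, 8.05% of all and 10.96% of protein-coding promoters. CCGGAAG (ETS) was found in 27.3%, 10.7% and 14.2%, and AAGATGGC (YY1) in 13.0%, 3.03% and 3.91%, in the same order. TCAAGGTCA (ERR) was found in 1.30% and 0.359% of all promoters. The HNF4 letters CAAAGTCCA and AGGTCAAAG were each in 0 of the 77, beside 0.359% and 0.238% of all promoters. Mean GC content was 60.4% in the 77, 57.3% in all and 61.4% in protein-coding promoters. A match of letters is a description of the window and says nothing about binding in these cells.

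The promoter of ATP5F1E is shown because that gene fell most, and those of NDUFS3, NDUFS7 and NDUFA6 because these complex I genes fell in knockdown1 and hold the motifs. NDUFS6, not shown, also fell and holds NRF1 letters. The other complex I genes that fell in knockdown1, NDUFA2, NDUFA5, NDUFB1, NDUFB2 and NDUFB10, hold none of the letters searched. Capitals mark the motifs found. In NDUFS3 (chr11:47578824-47579123, plus strand) they are ETS letters, once on each strand. In NDUFS7 (chr19:1383657-1383956, plus strand) they are NRF1 letters and then YY1 letters. In NDUFA6 (chr22:42090723-42091022, minus strand) they are the NRF1 letters with the free base and then YY1 letters. The promoter of ATP5F1E (chr20:59032286-59032585, minus strand) holds none of the letters searched.
ATP5F1E: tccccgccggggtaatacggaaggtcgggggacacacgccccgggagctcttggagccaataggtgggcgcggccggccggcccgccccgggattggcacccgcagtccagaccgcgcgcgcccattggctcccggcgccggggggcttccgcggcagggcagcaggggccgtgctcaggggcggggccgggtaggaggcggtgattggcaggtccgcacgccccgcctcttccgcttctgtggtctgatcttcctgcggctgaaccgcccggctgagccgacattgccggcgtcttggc
NDUFS3: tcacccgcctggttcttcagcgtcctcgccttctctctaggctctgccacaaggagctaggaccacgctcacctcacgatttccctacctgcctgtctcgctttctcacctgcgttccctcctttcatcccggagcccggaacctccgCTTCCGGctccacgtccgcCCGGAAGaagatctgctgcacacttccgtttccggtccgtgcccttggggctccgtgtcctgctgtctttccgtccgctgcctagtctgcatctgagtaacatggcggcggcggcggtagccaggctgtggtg
NDUFS7: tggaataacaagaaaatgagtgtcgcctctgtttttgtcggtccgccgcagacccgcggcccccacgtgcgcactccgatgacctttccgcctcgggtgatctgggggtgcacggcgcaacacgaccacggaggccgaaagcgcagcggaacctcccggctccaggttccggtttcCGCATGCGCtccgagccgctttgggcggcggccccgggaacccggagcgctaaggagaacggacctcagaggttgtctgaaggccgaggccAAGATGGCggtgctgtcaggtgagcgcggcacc
NDUFA6: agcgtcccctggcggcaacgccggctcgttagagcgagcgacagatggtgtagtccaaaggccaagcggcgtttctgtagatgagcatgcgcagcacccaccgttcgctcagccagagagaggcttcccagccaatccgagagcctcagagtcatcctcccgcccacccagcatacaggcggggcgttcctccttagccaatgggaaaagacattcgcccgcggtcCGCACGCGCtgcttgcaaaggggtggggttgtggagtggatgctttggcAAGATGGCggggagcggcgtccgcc

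Complex I, the NADH dehydrogenase, held 9 of the 13 genes that fell in knockdown1, out of 33 tested, where 19.0% of all tested genes fell. It had 0 rises, and its median log2 difference from control was -0.20. NDUFA5, an accessory subunit of the arm that reaches ubiquinone, had scaled signals of 376, 403 and 463 in the knockdown1 arrays, 834, 971 and 926 in the knockdown2 arrays and 627, 680.1 and 950.3 in the control arrays. The knockdown1 arrays lay below all others, while knockdown2 overlapped control. On the log2 scale NDUFA5 differed from control by -0.84 (limma adjusted p = 8.54e-05, SE 0.15) in knockdown1 and by 0.30 (limma adjusted p = 0.166, SE 0.15) in knockdown2. Between the knockdowns it was -1.14 (limma adjusted p = 1.77e-06, SE 0.15), and these calls held in all 9 fits without 1 array.

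NDUFS7, a core subunit that carries the last iron-sulfur cluster before ubiquinone, had 209, 187 and 218 in the knockdown1 arrays, 215, 240.2 and 231 in the knockdown2 arrays and 334, 305 and 357 in the control arrays. All 6 knockdown arrays lay below the controls, and knockdown1 and knockdown2 overlapped. The log2 difference was -0.69 (limma adjusted p = 4.28e-04, SE 0.15) in knockdown1 and -0.53 (limma adjusted p = 0.00637, SE 0.15) in knockdown2. This probe set is of a kind that can match related sequences. A gene-specific probe set of NDUFS7 had mean signals of 13.7 in knockdown1, 15.1 in knockdown2 and 13.3 in control, at the array median, and its differences from control of 0.14 (limma adjusted p = 0.882, SE 0.57) and 0.42 (limma adjusted p = 0.656, SE 0.57) give no direction.

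NDUFS3, a core subunit next to NDUFS7, had 598, 574 and 734 in the knockdown1 arrays, 852, 845 and 876 in the knockdown2 arrays and 1065, 911 and 1082 in the control arrays. The 3 groups did not overlap, with knockdown1 lowest and control highest. Its log2 difference from control was -0.69 (limma adjusted p = 2.77e-04, SE 0.14) in knockdown1 and -0.24 (limma adjusted p = 0.208, SE 0.14) in knockdown2. Between the knockdowns it was -0.44 (limma adjusted p = 0.018, SE 0.14), a call lost without any 1 of knockdown1 replicates 1 and 2 and knockdown2 replicates 1 to 3, with values of -0.37 to -0.45 and an adjusted p of at most 0.0961.

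NDUFB10, an accessory subunit of the membrane arm, had 566, 538 and 699 in the knockdown1 arrays, 499, 516 and 533 in the knockdown2 arrays and 975, 726 and 1065 in the control arrays. All 6 knockdown arrays lay below the controls, with knockdown2 below knockdown1. NDUFB10 differed from control by -0.61 (limma adjusted p = 0.00252, SE 0.15) in knockdown1 and by -0.82 (limma adjusted p = 1.48e-04, SE 0.15) in knockdown2. The knockdowns differed by 0.21 (limma adjusted p = 0.349, SE 0.15), which was not called. A dimmer probe set of NDUFB10, which can match related sequences, averaged 232 in knockdown1, 248 in knockdown2 and 282 in control. It was not called, at -0.30 in knockdown1 and -0.17 in knockdown2 against control (limma adjusted p = 0.221 and 0.542, over all probe sets). NDUFB2, another membrane arm accessory subunit, had 1281, 1359 and 1674 in the knockdown1 arrays, 1138, 1241 and 1321 in the knockdown2 arrays and 1959, 1694 and 2046 in the control arrays. Again no knockdown array reached the controls. NDUFB2 differed from control by -0.41 (limma adjusted p = 0.0217, SE 0.14) in knockdown1 and by -0.62 (limma adjusted p = 9.10e-04, SE 0.14) in knockdown2. The call in knockdown1 was lost without any 1 of knockdown1 replicate 1, knockdown1 replicate 2 and control replicate 1, with an adjusted p of up to 0.128.

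The remaining complex I falls in knockdown1 were those of the accessory subunits NDUFA2, NDUFA6, NDUFS6 and NDUFB1, named to complete the count of 9. Their log2 differences from control lay between -0.42 and -0.53. A gene-specific probe set of NDUFA2 had mean signals of 18.9 in knockdown1 and 19.5 in control, near the array median, and its difference of 0.047 (limma adjusted p = 0.942, SE 0.38) gives no direction. NDUFA6, an accessory subunit on the matrix side, had 1051, 1003 and 1289 in the knockdown1 arrays, 1358, 1561 and 1465 in the knockdown2 arrays and 1644, 1392 and 1772 in the control arrays. Its knockdown1 arrays lay below all the others. It was also lower in knockdown1 than in knockdown2, by 0.40 (limma adjusted p = 0.0329, SE 0.14) on the log2 scale, a call kept in 3 of the 9 fits without 1 array. A dimmer, gene-specific probe set of NDUFA6 averaged 152 ± 30.8 in knockdown1, 278 ± 9.49 in knockdown2 and 285 ± 27.6 in control (SD, n = 3 each). It gave -0.91 against control (limma adjusted p = 1.06e-04, over all probe sets) and -0.88 between the knockdowns (limma adjusted p = 2.12e-04, over all probe sets). The knockdown1 calls for NDUFA2 and NDUFA6 held in all 9 such fits. Those for NDUFS6 and NDUFB1, whose knockdown1 and control arrays overlapped, were kept in 5 and 4 of them.

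Of the complex I genes 1 rose in a knockdown. NDUFS4, an accessory subunit needed to complete the complex, had 715, 617 and 845 in the knockdown1 arrays, 912, 859.7 and 886 in the knockdown2 arrays and 736, 552 and 751 in the control arrays. The knockdown2 arrays lay above all controls, and knockdown1 overlapped them. NDUFS4 differed from control by 0.40 (limma adjusted p = 0.049, SE 0.15) in knockdown2 and by 0.10 (limma adjusted p = 0.672, SE 0.15) in knockdown1. The rise was called without knockdown1 replicate 2, knockdown1 replicate 3 or control replicate 3 and in no other fit without 1 array. NDUFV2, a core iron-sulfur subunit at the NADH end, had 1386, 1206 and 1499 in the knockdown1 arrays, 1991, 1946 and 1886 in the knockdown2 arrays and 1592, 1259.9 and 1922 in the control arrays. Control overlapped both knockdowns, but the knockdowns did not overlap each other, and NDUFV2 differed between them by -0.51 (limma adjusted p = 0.00807, SE 0.14). Without knockdown1 replicate 2 it was -0.43, with an adjusted p of 0.0542.

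NDUFA1, a small membrane arm subunit, had 1719, 1925 and 1730.0 in the knockdown1 arrays, 2257, 2325 and 2531 in the knockdown2 arrays and 1926, 2063 and 2598 in the control arrays. Its knockdown1 arrays lay below all the others. It was lower in knockdown1 than in knockdown2 by 0.40 (limma adjusted p = 0.0231, SE 0.13) on the log2 scale. This call was lost with quantile normalization and in 3 of the 9 fits without 1 array, those without knockdown1 replicate 1, knockdown2 replicate 2 or knockdown2 replicate 3.

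Complex II, succinate dehydrogenase, also works in the tricarboxylic acid cycle, and 3 of its 4 genes were tested. Of these 0 were called in the 3 comparisons by limma, and 0 of the 3 had an unadjusted p under 0.05 in any of them, on the probe sets used. SDHA, the flavin subunit that oxidises succinate, had 685, 583 and 771 in the knockdown1 arrays, 709, 707 and 781 in the knockdown2 arrays and 744, 615 and 749 in the control arrays. All 3 groups overlapped. Its log2 difference from control was -0.05, 95% confidence interval -0.35 to 0.24, in knockdown1, and 0.06, 95% confidence interval -0.23 to 0.36, in knockdown2. SDHC and SDHD, the membrane anchors, differed from control by -0.12, 95% confidence interval -0.39 to 0.16, and -0.20, 95% confidence interval -0.50 to 0.11, in knockdown1. In knockdown2 the differences were 0.12, 95% confidence interval -0.15 to 0.40, for SDHC and -0.16, 95% confidence interval -0.46 to 0.14, for SDHD. All these intervals lay within 1.5-fold in either direction. Of 5 further tested probe sets of SDHC, 1 was called. It averaged 72.3 ± 9.83 in knockdown1, 101.6 ± 5.01 in knockdown2 and 104.5 ± 13.6 in control (SD, n = 3 each). It was lower in knockdown1 than in control, at -0.52 (limma adjusted p = 0.0193, over all probe sets), and than in knockdown2, at -0.49 (limma adjusted p = 0.0338, over all probe sets), so the probe sets of SDHC disagreed.

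Complex III, the cytochrome bc1 complex, had 6 tested genes. On the probe sets used, 0 of the 6 were called in knockdown1, and 2 had an unadjusted p under 0.05. In knockdown2, 1 gene fell, where 13.9% of all tested genes did. UQCRC1, a core protein on the matrix side, had 1196, 1202 and 1510.4 in the knockdown1 arrays, 1276, 1195 and 1308 in the knockdown2 arrays and 1725, 1415 and 1773 in the control arrays. The knockdown2 arrays lay below all controls, and knockdown1 overlapped control. UQCRC1 differed from control by -0.33 (limma adjusted p = 0.0644, SE 0.14) in knockdown1 and by -0.37 (limma adjusted p = 0.0432, SE 0.14) in knockdown2. The knockdown2 call was kept in 3 of the 9 fits without 1 array, those without knockdown1 replicate 2 or 3 or control replicate 2. With the values as deposited, UQCRC1 and UQCR10 fell in both knockdowns, UQCRQ fell in knockdown2, and UQCR11 rose in knockdown1 and fell in knockdown2. Dimmer probe sets were called after common scaling. That of UQCR11, averaging 78.2 in knockdown1 and 140 in control, gave -0.82 in knockdown1 (limma adjusted p = 0.00185, over all probe sets). In knockdown1 1 of UQCRC2 gave -0.99 (limma adjusted p = 0.0343, over all probe sets). That of UQCR10 gave -0.88 in knockdown2 (limma adjusted p = 1.95e-04, over all probe sets).

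Complex IV, cytochrome c oxidase, had 13 tested genes, of which 2 fell in knockdown1 and 1 in knockdown2, beside 19.0% and 13.9% of all tested genes. With the values as deposited, 3 of the 13 fell in knockdown1 and 4 in knockdown2, beside 20.1% and 20.0% of all tested genes. COX5A, a subunit on the matrix side, had 2746, 2396 and 3048 in the knockdown1 arrays, 2805, 2855 and 2895 in the knockdown2 arrays and 3618, 3316 and 4053 in the control arrays. All 6 knockdown arrays lay below the controls, and the knockdowns overlapped. The log2 difference was -0.43 (limma adjusted p = 0.00965, SE 0.13) in knockdown1 and -0.36 (limma adjusted p = 0.0356, SE 0.13) in knockdown2. Without knockdown1 replicate 2 the first was -0.34 (limma adjusted p = 0.0774), and the second was kept in 4 of the 9 fits without 1 array and lost without any of the knockdown2 replicates, control replicate 1 or control replicate 3.

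COX6C, a small membrane subunit, had 2254, 2037 and 2531 in the knockdown1 arrays, 2866, 2889 and 2983 in the knockdown2 arrays and 3033, 2505 and 3132 in the control arrays. The knockdown1 arrays lay below all knockdown2 arrays and overlapped control at control replicate 2. The log2 difference was -0.34 (limma adjusted p = 0.0389, SE 0.13) in knockdown1 against control and -0.36 (limma adjusted p = 0.0361, SE 0.13) between the knockdowns. Without 1 array the first ranged from -0.27 to -0.44 and was called without knockdown1 replicate 3 or control replicate 2 alone, and the second was called in 3 of the 9 fits.

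Several complex IV subunits come as a common form and a form known from muscle, lung or testis. COX4I1, the common form of the fourth subunit, had 3179, 3041 and 3923 in the knockdown1 arrays, 3698, 3932 and 3863 in the knockdown2 arrays and 4034, 3458 and 4252 in the control arrays, and its groups overlapped. COX4I2, its hypoxia-responsive lung form, had 34.6, 30.7 and 44.2 in the knockdown1 arrays, 50.4, 29.5 and 37.1 in the knockdown2 arrays and 41.6, 33.4 and 40.1 in the control arrays, also with overlap. Neither was called, and the log2 difference of COX4I1 was -0.21, 95% confidence interval -0.48 to 0.05, in knockdown1 and -0.03, 95% confidence interval -0.29 to 0.24, in knockdown2. The ubiquitous COX6A1 had 3446, 3418 and 4333 in the knockdown1 arrays, 3541, 3846 and 3788 in the knockdown2 arrays and 4112, 3532 and 4464 in the control arrays, and the muscle form COX6A2 had 21.8, 17.7 and 27.7 in the knockdown1 arrays, 30.5, 23.4 and 27.7 in the knockdown2 arrays and 22.1, 24.6 and 17.9 in the control arrays. No group of either stood apart. COX6B1, which faces cytochrome c, differed from control by -0.10, 95% confidence interval -0.39 to 0.18, in knockdown1 and by 0.05, 95% confidence interval -0.23 to 0.33, in knockdown2. COX7A2, the common form of subunit 7A, and COX7A2L, which helps join complexes III and IV, overlapped between all groups, with differences from control of -0.15 and -0.08 in knockdown1 and 0.08 and -0.17 in knockdown2.

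The muscle form COX7A1 and the testis forms COX6B2, COX7B2 and COX8C did not pass the filter, nor did ATP5MF, the pseudogene COX6A1P1 and the antisense transcripts NDUFB2-AS1 and NDUFV2-AS1. COX7A1 had 13.9, 4.13 and 1.57 in the knockdown1 arrays, 6.22, 0.933 and 12.2 in the knockdown2 arrays and 1.53, 1.90 and 1.15 in the control arrays. These 9 signals stayed below the common median of 14.1. NDUFA4, read under the symbol COXFA4, had 2667, 2918 and 3319.8 in the knockdown1 arrays, 3247, 3609 and 3544 in the knockdown2 arrays and 2626, 2553 and 3203 in the control arrays. Its knockdown2 arrays lay above the controls, and the log2 difference was 0.32 (limma adjusted p = 0.0681, SE 0.13), which was not called. In knockdown1 it was 0.09 (limma adjusted p = 0.646). NDUFA4L2, read as COXFA4L2, had 9.78, 3.95 and 7.62 in the knockdown1 arrays, 17.6, 16.1 and 22.1 in the knockdown2 arrays and 20.5, 2.53 and 5.39 in the control arrays, with control overlapping both knockdowns.

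Complex V, the ATP synthase, had 17 tested genes, of which 1 fell in knockdown1 and 1 in knockdown2, against 19.0% and 13.9% of all tested genes. With the values as deposited, 5 of the 17 fell in knockdown1 and 7 in knockdown2, against 20.1% and 20.0% of all tested genes. ATP5F1E encodes the epsilon subunit in the central stalk of the catalytic F1 part. It had 592, 603 and 728 in the knockdown1 arrays, 4119.6, 4303 and 4368 in the knockdown2 arrays and 4059, 3347 and 5302 in the control arrays. The knockdown1 arrays lay far below the rest, and knockdown2 overlapped control. Its mean was 641 ± 75.5 in knockdown1, 4264 ± 129 in knockdown2 and 4236 ± 989 in control (SD, n = 3 each). ATP5F1E fell by 2.70 (limma adjusted p = 7.56e-14, SE 0.14) on the log2 scale in knockdown1, where 67 of the 13056 genes fell further. In knockdown2 its log2 difference from control was 0.03 (limma adjusted p = 0.896, SE 0.14). Between the knockdowns it was -2.74 (limma adjusted p = 1.05e-13, SE 0.14), and 20 genes were lower by more.

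A dimmer probe set of ATP5F1E averaged 13.3 ± 3.06 in knockdown1, 22.6 ± 0.52 in knockdown2 and 41.9 ± 12.6 in control (SD, n = 3 each). It gave log2 differences from control of -1.55 in knockdown1 (limma adjusted p = 4.08e-04, over all probe sets) and -0.81 in knockdown2 (limma adjusted p = 0.049, over all probe sets). Between the knockdowns it gave -0.73 (limma adjusted p = 0.0807, over all probe sets). This probe set thus moved the same way in knockdown1, by less, and unlike the brighter one it also fell in knockdown2.

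ATP5F1E lies on chromosome 20 (GRCh38.p14), from 59025475 to 59032335. The genes beside it did not share its pattern in full. NELFCD, a subunit of the negative elongation factor, from 58981256 to 58995113, had 556, 609 and 643 in the knockdown1 arrays, 1249.5, 1154 and 1132 in the knockdown2 arrays and 1304, 1131 and 1171 in the control arrays. Its knockdown1 arrays lay below all others, and its log2 difference from control was -0.99 (limma adjusted p = 8.43e-07, SE 0.13) in knockdown1 and -0.03 (limma adjusted p = 0.913, SE 0.13) in knockdown2. PRELID3B, a lipid transfer protein of mitochondria that starts on the other side of ATP5F1E, had 449.5, 457 and 494 in the knockdown1 arrays, 643, 767 and 671 in the knockdown2 arrays and 487, 512 and 438 in the control arrays. It differed from control by -0.03 (limma adjusted p = 0.88, SE 0.14) in knockdown1 and by 0.53 (limma adjusted p = 0.00444, SE 0.14) in knockdown2, a rise lost without knockdown2 replicate 2 (0.46, limma adjusted p = 0.0545). TUBB1, whose annotated end overlaps that of ATP5F1E, and CTSZ were not called in any of the 3 comparisons, and ZNF831 and EDN3 did not pass the filter.

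The other complex V genes moved less. ATP5MC1, ATP5MC2 and ATP5MC3 encode the same mature subunit of the rotating ring in the membrane. ATP5MC1 had 717, 620.2 and 969 in the knockdown1 arrays, 639, 658 and 675 in the knockdown2 arrays and 948, 804 and 1088 in the control arrays. Its knockdown2 arrays lay below all controls, and knockdown1 overlapped control. ATP5MC1 differed from control by -0.52 (limma adjusted p = 0.0135, SE 0.16) in knockdown2 and by -0.31 (limma adjusted p = 0.128, SE 0.16) in knockdown1, and the knockdown2 value without knockdown2 replicate 1 was -0.49, with an adjusted p of 0.0513.

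ATP5MC2 had 1231, 1105 and 1401 in the knockdown1 arrays, 1620.5, 1485 and 1599.8 in the knockdown2 arrays and 1456, 1291 and 1678 in the control arrays, and ATP5MC3 had 3455, 3499 and 4281 in the knockdown1 arrays, 3597, 4066 and 3826 in the knockdown2 arrays and 4593, 3978 and 4952 in the control arrays. Both overlapped control in each knockdown. After common scaling neither was called, with differences from control of -0.24 and -0.27 in knockdown1 and 0.10 and -0.23 in knockdown2. With the values as deposited, ATP5MC3 was called lower in knockdown1, at -0.18 (limma adjusted p = 0.0258), and in knockdown2, at -0.26 (limma adjusted p = 0.00323). A dimmer probe set of ATP5MC3 averaged 149 ± 17.4 in knockdown1, 123 ± 2.51 in knockdown2 and 239 ± 68.7 in control (SD, n = 3 each). It gave -0.65 in knockdown1 (limma adjusted p = 0.00754, over all probe sets) and -0.92 in knockdown2 (limma adjusted p = 5.61e-04, over all probe sets). ATP5IF1, the inhibitor that blocks ATP hydrolysis by the enzyme, differed from control by 0.08, 95% confidence interval -0.23 to 0.39, in knockdown1 and by -0.14, 95% confidence interval -0.46 to 0.17, in knockdown2. A gene-specific probe set of ATP5IF1, nearly as bright, averaged 449.6 ± 34.4 in knockdown1, 267 ± 9.85 in knockdown2 and 318 ± 48.5 in control (SD, n = 3 each). It was higher in knockdown1 than in control, by 0.51 (limma adjusted p = 0.00903, over all probe sets), and than in knockdown2, by 0.75 (limma adjusted p = 4.46e-04, over all probe sets). The remaining probe set of ATP5IF1 was also higher in knockdown1 than in knockdown2, by 0.45 (limma adjusted p = 0.0288, over all probe sets), so the result for ATP5IF1 depended on the probe set. On the probe sets used, apart from ATP5F1E, the 17 complex V genes had differences from control no larger than 0.52 in size, and 15 of the 17 intervals in knockdown2 lay within 1.5-fold.

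**Figure D4:**
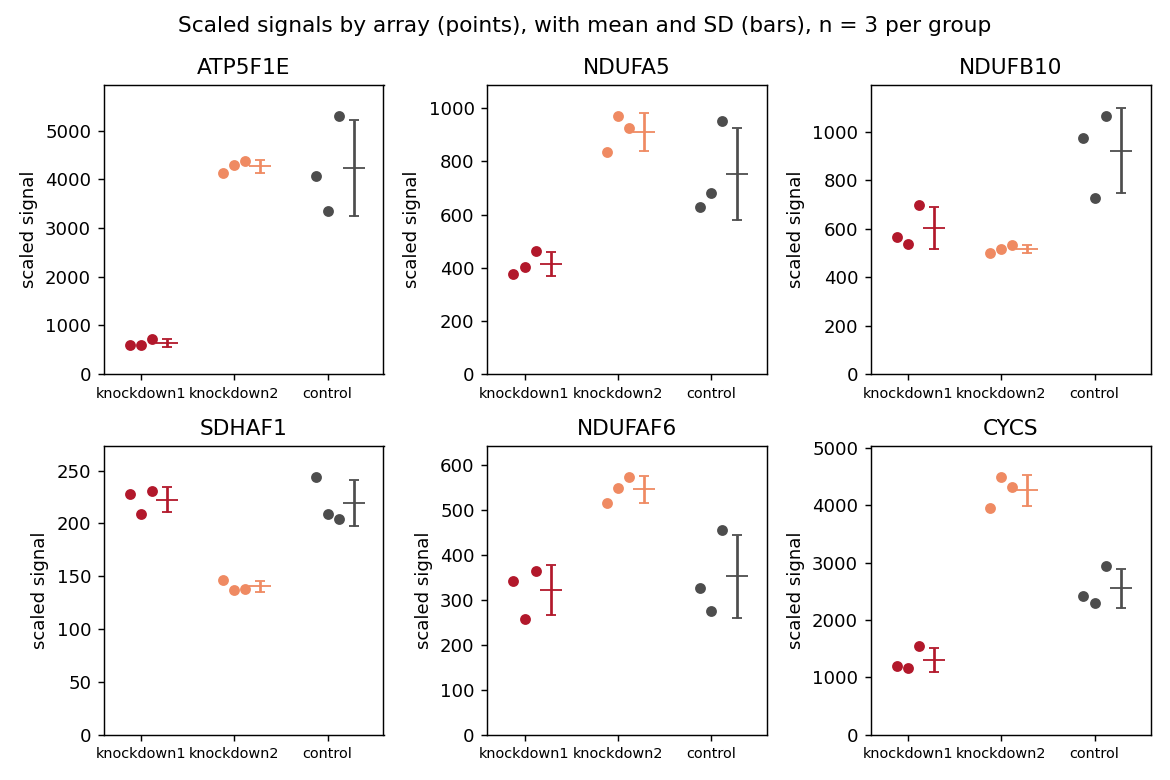
Points are scaled signals of 1 array each, on linear axes that start at 0, with the mean and SD of each group of 3 beside them, for 5 of the oxidative phosphorylation genes and for CYCS. On the probe sets used, ATP5F1E and NDUFA5 are low in knockdown1 alone, and NDUFB10 is low in both knockdowns. On these probe sets SDHAF1 is low and NDUFAF6 high in knockdown2 alone, and CYCS lies on opposite sides of control in the 2 knockdowns.

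The assembly factors help build complexes I and II and are not part of the finished enzymes. Of the 12 tested, 4 were higher and 2 lower in knockdown1 than in knockdown2, where 10.5% of all tested genes were higher and 16.1% lower. SDHAF1, which helps insert iron-sulfur clusters into SDHB, had 228, 209 and 231 in the knockdown1 arrays, 146, 137 and 138 in the knockdown2 arrays and 244, 209 and 205 in the control arrays. Its knockdown2 arrays lay below all others, and knockdown1 overlapped control. SDHAF1 differed from control by -0.63 (limma adjusted p = 0.00157, SE 0.15) in knockdown2 and by 0.02 (limma adjusted p = 0.925, SE 0.15) in knockdown1. Between the knockdowns the difference was 0.66 (limma adjusted p = 0.00115, SE 0.15). SDHAF3, a second factor for SDHB, had 283, 368 and 337 in the knockdown1 arrays, 172, 192 and 189 in the knockdown2 arrays and 180.3, 174 and 336 in the control arrays. Its knockdown1 arrays lay above all knockdown2 arrays, while control replicate 3 lay among them.

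The log2 difference of SDHAF3 was 0.57 (limma adjusted p = 0.0194, SE 0.19) in knockdown1 against control and 0.83 (limma adjusted p = 0.00145, SE 0.19) between the knockdowns. The first was lost without knockdown1 replicate 2 or 3 or control replicate 1 or 2, with values of 0.41 to 0.55 and an adjusted p of at most 0.127. NDUFAF1, which acts early in building the membrane arm of complex I, had 125, 131 and 195 in the knockdown1 arrays, 208, 236 and 241 in the knockdown2 arrays and 269, 198 and 304 in the control arrays. Its knockdown1 arrays lay below all others. The log2 difference was -0.77 (limma adjusted p = 0.0011, SE 0.18) in knockdown1 against control, -0.15 (limma adjusted p = 0.594, SE 0.18) in knockdown2 against control and -0.62 (limma adjusted p = 0.00934, SE 0.18) between the knockdowns. The last was -0.51 without knockdown1 replicate 1, with an adjusted p of 0.0705.

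NDUFAF3, which acts early in building the ubiquinone arm, had 235, 206 and 290.3 in the knockdown1 arrays, 184, 160.1 and 164 in the knockdown2 arrays and 267, 207 and 287 in the control arrays. The knockdown2 arrays lay below all others. NDUFAF3 differed from control by -0.57 (limma adjusted p = 0.00924, SE 0.16) in knockdown2 and by -0.06 (limma adjusted p = 0.825, SE 0.16) in knockdown1, and between the knockdowns by 0.51 (limma adjusted p = 0.02, SE 0.16), a call lost without knockdown1 replicate 3, knockdown2 replicate 2 or knockdown2 replicate 3. NDUFAF6, another complex I assembly factor, had 342, 258 and 363 in the knockdown1 arrays, 515, 548 and 574 in the knockdown2 arrays and 326, 275 and 455 in the control arrays. Its knockdown2 arrays lay above all others. The log2 difference was 0.66 (limma adjusted p = 0.00383, SE 0.17) in knockdown2 against control, -0.11 (limma adjusted p = 0.653, SE 0.17) in knockdown1 against control and -0.78 (limma adjusted p = 8.97e-04, SE 0.17) between the knockdowns. A dimmer probe set of NDUFAF6 averaged 38.1 in knockdown1, 33.1 in knockdown2 and 23.4 in control. It gave 0.43 in knockdown2 and 0.64 in knockdown1 against control (limma adjusted p = 0.273 and 0.0799, over all probe sets). Between the knockdowns it gave 0.21 (limma adjusted p = 0.637, over all probe sets), the opposite sign. With the mean of the probe sets the difference between the knockdowns was -0.28 (limma adjusted p = 0.262). NDUFAF8, a partner of the complex I factor NDUFAF5, had 794, 712 and 972 in the knockdown1 arrays, 531, 539 and 548 in the knockdown2 arrays and 632, 537 and 827 in the control arrays. Its knockdown1 arrays lay above all knockdown2 arrays, with control overlapping both. NDUFAF8 differed between the knockdowns by 0.60 (limma adjusted p = 0.00444, SE 0.16) on this probe set. A gene-specific probe set of NDUFAF8 had mean signals of 12.1 in knockdown1 and 14.8 in knockdown2, at the array median, and its difference of -0.28 (limma adjusted p = 0.696, SE 0.42) gives no direction.

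Further probe sets were at hand for some of the called genes. In knockdown1 against control, 8 further probe sets of 7 called genes had the same sign in 6 cases, 3 of them called, and the opposite sign in 2 cases, 0 of them called. In knockdown2 against control, 6 of 7 had the same sign, and between the knockdowns 3 of 5. Of the genes that were not called in knockdown1 against control, 34 had 57 further tested probe sets, of which 3 were higher and 5 lower, beside 13.1% and 17.0% of all 24565 probe sets tested. In knockdown2 against control 2 of 58 were higher and 5 lower, beside 13.8% and 11.6%, and between the knockdowns 3 of 60 were higher and 3 lower, beside 8.69% and 15.2%.

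Cytochrome c, which carries electrons from complex III to complex IV, was among the genes of the wider pathway examined beside the 94. CYCS, which encodes it, had 1195, 1162 and 1541 in the knockdown1 arrays, 3958, 4499.9 and 4322 in the knockdown2 arrays and 2425, 2293 and 2944 in the control arrays. The 3 groups did not overlap, with knockdown1 below and knockdown2 above control. The log2 difference was -0.98 (limma adjusted p = 1.83e-06, SE 0.14) in knockdown1 and 0.74 (limma adjusted p = 1.22e-04, SE 0.14) in knockdown2, and -1.72 (limma adjusted p = 1.24e-10, SE 0.14) between the knockdowns. CYC1, the cytochrome c1 subunit of complex III, whose symbol falls outside the rule, had 1056, 1064 and 1259 in the knockdown1 arrays, 1194, 1218 and 1251 in the knockdown2 arrays and 1545, 1239.5 and 1533 in the control arrays. It fell by 0.35 (limma adjusted p = 0.045, SE 0.13) in knockdown1, with knockdown1 replicate 3 above control replicate 2, and differed by -0.23 (limma adjusted p = 0.226, SE 0.13) in knockdown2. The fall was called without knockdown1 replicate 3 or control replicate 2 and in no other fit without 1 array.

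Of 17 regulators of mitochondrial biogenesis and mitochondrial DNA expression, 3 rose and 2 fell in knockdown1, and 5 rose and 1 fell in knockdown2. Of all tested genes, 14.3% rose and 19.0% fell in knockdown1, and 13.7% rose and 13.9% fell in knockdown2. TFAM, which packages mitochondrial DNA and starts its transcription, had 183, 164 and 199 in the knockdown1 arrays, 878, 991 and 941 in the knockdown2 arrays and 807, 715 and 1044 in the control arrays. The knockdown1 arrays lay far below the rest, and knockdown2 overlapped control. TFAM fell by 2.21 (limma adjusted p = 4.03e-12, SE 0.15) on the log2 scale in knockdown1 and differed by 0.15 (limma adjusted p = 0.529, SE 0.15) in knockdown2. PPARGC1A, a coactivator of mitochondrial biogenesis, had 18.1, 26.9 and 27.7 in the knockdown1 arrays, 68.6, 78.7 and 78.3 in the knockdown2 arrays and 144, 119 and 155 in the control arrays. The 3 groups did not overlap. PPARGC1A had log2 differences of -2.47 (limma adjusted p = 5.84e-11, SE 0.19) in knockdown1 and -0.87 (limma adjusted p = 0.00104, SE 0.19) in knockdown2. TFB2M, which opens mitochondrial DNA for transcription, rose in knockdown2, with a log2 difference of 0.84 (limma adjusted p = 2.59e-05, SE 0.14).

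Of 38 tested assembly factors outside the symbol rule, 7 rose and 8 fell in knockdown1, beside 14.3% and 19.0% of all tested genes, and 5 rose and 3 fell in knockdown2, beside 13.7% and 13.9%. COA1, a complex IV assembly factor, had 224, 206 and 224 in the knockdown1 arrays, 497, 514 and 528 in the knockdown2 arrays and 642, 549 and 645 in the control arrays, with all knockdown1 arrays below the rest. In knockdown1 COA1 fell by 1.48 (limma adjusted p = 1.81e-09, SE 0.14) on this probe set, which can match related sequences. A gene-specific probe set gave -0.09 (limma adjusted p = 0.842) and, between the knockdowns, 0.21. COX19, a copper-related factor of complex IV, had a log2 difference of -1.36 in knockdown1 (SE 0.29, limma adjusted p = 4.71e-04). TACO1, which activates translation of a mitochondrially encoded complex IV subunit, had 284, 269 and 335 in the knockdown1 arrays, 271, 277 and 271 in the knockdown2 arrays and 521, 421 and 580.3 in the control arrays. All 6 knockdown arrays lay below the controls, with log2 differences of -0.77 (limma adjusted p = 1.97e-04, SE 0.15) in knockdown1 and -0.88 (limma adjusted p = 5.39e-05, SE 0.15) in knockdown2. UQCC1, a complex III assembly factor, differed from control by 0.61 (limma adjusted p = 0.00547, SE 0.16) in knockdown2, where its gene-specific probe set gave -0.37 (limma adjusted p = 0.101). SCO1, which delivers copper to complex IV, was lower in knockdown1 than in knockdown2 by 0.95 (limma adjusted p = 1.50e-05, SE 0.15).

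Of 16 tested genes of the tricarboxylic acid cycle and its entry, 0 rose and 4 fell in knockdown1, beside 14.3% and 19.0% of all tested genes, and 1 rose and 4 fell in knockdown2, beside 13.7% and 13.9%. PC, the pyruvate carboxylase that refills the cycle, had 109.6, 102 and 105 in the knockdown1 arrays, 126, 138 and 151 in the knockdown2 arrays and 254, 218 and 261 in the control arrays. All 6 knockdown arrays lay below the controls, with log2 differences of -1.196 (limma adjusted p = 3.87e-07, SE 0.15) in knockdown1 and -0.81 (limma adjusted p = 1.53e-04, SE 0.15) in knockdown2. In knockdown2 the log2 difference of CS, citrate synthase, was -0.76 (limma adjusted p = 1.00e-04, SE 0.14). In knockdown1 that of IDH3B, a subunit of isocitrate dehydrogenase, was -0.87 (limma adjusted p = 2.74e-05, SE 0.15). Between the knockdowns SUCLG2 was lower in knockdown1 (-0.81) and OGDH higher (0.77), the second a call lost without knockdown2 replicate 1 (0.54).

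Of 16 tested genes of electron entry and ubiquinone synthesis, 0 rose and 4 fell in knockdown1, beside 14.3% and 19.0% of all tested genes, and 1 rose and 4 fell in knockdown2, beside 13.7% and 13.9%. ETFDH, which passes electrons from fatty acid oxidation to ubiquinone, had 74.5, 62.1 and 80.0 in the knockdown1 arrays, 24.3, 30.1 and 34.1 in the knockdown2 arrays and 70.0, 78.8 and 106 in the control arrays. Its knockdown2 arrays lay below all others, with a log2 difference of -1.47 (limma adjusted p = 2.60e-06, SE 0.20) in knockdown2 and -0.21 (limma adjusted p = 0.464, SE 0.20) in knockdown1. COQ2, which attaches the isoprenoid tail to the ring of the ubiquinone precursor, fell by 1.07 in knockdown2 (SE 0.19, limma adjusted p = 7.43e-05). In knockdown1 the largest falls of this list were ETFB, at -0.64, and COQ6, at -0.62. The call for COQ6 was lost as deposited (-0.54, limma adjusted p = 0.0502) and without knockdown1 replicate 1 or 2 or any 1 of the control replicates.

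Of 6 tested carriers of adenine nucleotides and phosphate, 3 fell in knockdown1 and 1 in knockdown2, beside 19.0% and 13.9% of all tested genes. SLC25A4, the muscle-type ADP/ATP carrier, had log2 differences of -0.50 (limma adjusted p = 0.0176, SE 0.16) in knockdown1 and -0.45 (limma adjusted p = 0.0387, SE 0.16) in knockdown2. These calls were lost in 4 and 5 of the 9 fits without 1 array. SLC25A5, the common carrier, had -0.43 (limma adjusted p = 0.00993, SE 0.13) in knockdown1, and -0.36 without knockdown1 replicate 2 (limma adjusted p = 0.0634). Of 75 mitochondrial ribosome genes, 4 rose and 10 fell in knockdown1, beside 14.3% and 19.0% of all tested genes, and 3 rose and 10 fell in knockdown2, beside 13.7% and 13.9%. Between the knockdowns 3 were higher and 3 lower in knockdown1, beside 10.5% and 16.1%. The median log2 difference of these 75 genes was -0.06 in knockdown1 and -0.08 in knockdown2. The 13 mitochondrially encoded subunits had no probe set annotated to 1 gene alone and were not analysed here.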

How the data were processed

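The 9 arrays were grouped by sample titles. Per the submitters' processing notes, the authors computed 1 linear intensity per probe set with MAS5 (an Affymetrix algorithm whose version was not given) and deposited it. The 3 arrays per group limit the precision. The array medians differed by 1.28 times, above the limit of 1.2 set for scaling, so each array was multiplied by 0.898 to 1.15 to a median of 14.1. This came on top of a trimmed mean of 100.0 that the deposited arrays already shared. Values were taken as log2(signal + 1.41), which understates changes of dim genes. Probe sets annotated to 1 gene symbol (41091 of 54675) were used. They were kept when above their array's median on at least 3 of 9 arrays, and each gene took its probe set with the highest mean. Of the 86 tested members, 38 were read from _s_at and 8 from _x_at probe sets, which can match related sequences.

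The test was limma's (version 3.58.1, under R 4.3.3), two-sided, using lmFit, contrasts.fit and eBayes and allowing the variance to depend on the mean, with all 9 arrays in 1 fit, Benjamini-Hochberg adjustment over 13056 genes and a threshold of 0.05. Fits were tested on simulated data. The fits that left out 1 array and the fit with the replicate number as a block were also run on the values as deposited, as alternatives chosen after seeing the data. The members and gene lists were chosen with earlier results of these data known. Named are the 3 largest called rises and falls per complex and comparison, complex II, isoform sets, ATP5IF1, members below the filter, and the 2 largest calls of each related list. Other called members are named to complete counts.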

Additional observations from a re-analysis of the deposited data

Results flagged for a closer look

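The 2 knockdowns differed from each other in 13 of the 86 tested genes by limma over all 13056 genes (adjusted p under 0.05), a share of 15.1% beside 26.6% of all tested genes, so that their differences from the shared controls are unequal for these genes. The values that follow are log2 differences, knockdown1 minus knockdown2, on the probe sets used.

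Lower in knockdown1 were ATP5F1E (-2.74), NDUFA5 (-1.14), NDUFAF6 (-0.78), NDUFAF1 (-0.62), NDUFV2 (-0.51), NDUFS3 (-0.44), NDUFA1 (-0.40), NDUFA6 (-0.40) and COX6C (-0.36). Of these, NDUFAF6 lay above control in knockdown2, by 0.66, and ATP5F1E, NDUFA5, NDUFS3, NDUFA6, NDUFAF1 and COX6C lay below control in knockdown1. After common scaling, NDUFV2 and NDUFA1 passed the threshold against control in neither knockdown, nor did NDUFAF8. With the values as deposited, NDUFV2 was called higher than control in knockdown2. NDUFAF8 was then called higher than control in knockdown1 and lower in knockdown2.

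Higher in knockdown1 were SDHAF3 (0.83), SDHAF1 (0.66), NDUFAF8 (0.60) and NDUFAF3 (0.51). SDHAF1 and NDUFAF3 lay below control in knockdown2, by 0.63 and 0.57 on the log2 scale, and SDHAF3 lay above control in knockdown1. With the values as deposited, all 13 differences kept their sign and passed the threshold. ATP5F1E had the largest difference between the knockdowns among the 86 tested genes, and it was called lower in all 9 fits that left out 1 array.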

How the results depend on the processing

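The signs of the 73 called differences followed here, of members, related genes and HNF4G, were the same under every alternative run, except with probe sets other than _x_at and _s_at. These turned NDUFS7 to 0.14 in knockdown1 and 0.42 in knockdown2, NDUFA2 to 0.047 in knockdown1 and UQCC1 to -0.37 in knockdown2, against control, and NDUFAF8 to -0.28 and COA1 to 0.21 between the knockdowns. The NDUFS7, NDUFA2 and NDUFAF8 probe sets averaged 12.1 to 20.5, near the array median of 14.1, with SEs of 0.38 to 0.57, so their signs give no direction. For UQCC1 and COA1 the cause was not tested. Of the 73, 53 kept their call without a variance trend, 60 without a filter, 63 with probe sets other than _x_at and _s_at, 66 with the mean of the probe sets, 68 with only the groups compared, 59 to 71 without 1 array and 72 as deposited, where COQ6 did not. Counts of called members are given as higher and lower. Shares of all tested genes are given above for the scalings alone, so the counts under other settings are not set against them. In knockdown1 against control they were 7 and 21 as deposited, 11 and 21 with quantile normalization, and 6 and 19 centred on the tested genes. The number of rises was 0 without a filter, 0 without a variance trend, 2 with the mean of the probe sets and 2 with probe sets other than _x_at and _s_at. In knockdown2 against control they were 5 and 30 as deposited, 5 and 38 with quantile normalization, 8 and 17 centred, and 1 and 5 without a variance trend, with 1 rise without a filter and 1 with probe sets other than _x_at and _s_at. Between the knockdowns they were 19 and 10 as deposited, 30 and 9 with quantile normalization (median 0.11), 13 and 15 centred, and 3 lower without a variance trend. Leaving out 1 array gave 0 to 5 and 8 to 28 in knockdown1, 1 to 6 and 5 to 16 in knockdown2, and 3 to 5 and 4 to 16 between the knockdowns. With the values as deposited, added after seeing the data, leaving out 1 array gave 5 to 9 and 15 to 26, 4 to 6 and 23 to 34 (25, 27 or 29 in 5 of the 9 fits), and 15 to 20 and 9 to 14.

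For same-numbered arrays, 1 of the 9 correlations of their deviations exceeded 0.1 (from -0.02 to 0.13), and 9 of 18 checks gave a sample its own number. With mostly weak correlations and the origin of the replicates unstated, these checks cannot decide whether such arrays shared more than a number. With the replicate block, counts were 2 and 22 in knockdown1 and 5 rises in knockdown2. With the values as deposited and the replicate block, they were 6 and 22, 6 and 31, and 21 higher between the knockdowns. The shares of all tested genes with the block are not given here. The block changed 0 of the 73 calls.

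Limits are the 3 arrays per group, the unstated origin of the replicates, and probe sets that can match related sequences.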
